A study of Mus musculus with 8 samples.

Results

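The transcripts of Mediator and of the RNA polymerase II elongation factors were followed in mouse J1 embryonic stem cells after knockdown of Fbxl19 and on day 4 of differentiation. Members were 41 genes listed by the complex they belong to, 30 of Mediator and its kinase module and 11 of the elongation machinery. Of these, 38 had a probe set with a single gene symbol in the platform annotation, among 12393 such genes. The brightest probe set of a gene, by its average across the 8 arrays, stood for it. Med18, Med13 and Cdk19 had none under this rule and were not analysed here.

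Mediator is a large complex that links transcription factors bound to enhancers with RNA polymerase II at promoters. Its head and middle modules contact the polymerase, its tail receives signals from activators, Med14 is the backbone that holds these parts together, and a dissociable kinase module of Med12, Med13, cyclin C and Cdk8 or Cdk19 regulates access of the polymerase. After initiation the polymerase pauses under the influence of DSIF and NELF until P-TEFb, the kinase Cdk9 with a T-type cyclin, releases it. The super elongation complex joins P-TEFb to an AFF scaffold protein and an ELL elongation factor, and elongin is a separate factor that stimulates elongation. In stem cells, Mediator is known for its dense occupancy at the enhancers of pluripotency genes.

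There were 4 groups of 2 arrays, all from J1 cells, an embryonic stem cell line grown on gelatin with serum and leukemia inhibitory factor (LIF). The groups were Fbxl19 shRNA1, Fbxl19 shRNA2, day 4 of differentiation, and a control hairpin (shControl). The sample titles name Fbxl19 for all 4 knockdown arrays and were followed, while the free-text descriptions name a different gene for each, Fbxl19 for shRNA1 replicate 1, Fbxl20 for shRNA1 replicate 2, Fbxl21 for shRNA2 replicate 1 and Fbxl22 for shRNA2 replicate 2. The series was made to follow expression when Fbxl19, an F-box protein that binds unmethylated CpG DNA, is reduced. The labels do not say how the hairpins were delivered, how the cells were differentiated, whether the day 4 cells carried a hairpin, or whether replicates came from separate cultures. The p-values therefore reflect no more than array-to-array spread, possibly technical in origin. The level of Fbxl19 was not analysed here, so the degree of knockdown is unknown.

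Values were log2 expression from RMA, a method that corrects background, equalises the arrays' distributions and summarises the probes of a probe set. The arrays had medians of 5.70 to 5.81, the highest on shControl replicate 2. The 38 members had a median of 0.09 above the shControl mean on shControl replicate 2 and 0.09 below it (-0.09) on replicate 1. These values mirror each other because the mean is that of the same 2 arrays. For the actin control, the 3' signal exceeded the 5' signal, a sign of RNA quality, by 0.65 to 0.76 log2 units on the knockdown and day 4 arrays and by 0.60 and 0.54 on the shControl arrays. For the Gapdh control the excess was 0.17 and 0.26 on the shControl arrays and 0.18 to 0.27 on the others, which overlapped. The part of RNA quality in the results below was not tested. Of 10 markers of pluripotent stem cells, 0 rose and 7 fell on day 4 (5 after centring each array on its median), Pou5f1 and Sox2 not among them, and the 4 markers of the primed epiblast all rose (limma adjusted p under 0.05). The summed linear level of 8 fibroblast markers was 164 and 169 on day 4 and 171 and 200 in shControl, and Col3a1, Lum and Postn lay below the lower quartile on every array. None of the 8 was called (limma), 5 of 8 lay above 0, the median change was 0.07, and 2 had an unadjusted p under 0.05, Col1a2 at 0.90 ± 0.27 (adjusted p = 0.0522) and Thy1 at -0.98 ± 0.32 (adjusted p = 0.0706). Their part in the day 4 results was not tested.

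**Figure D1:**
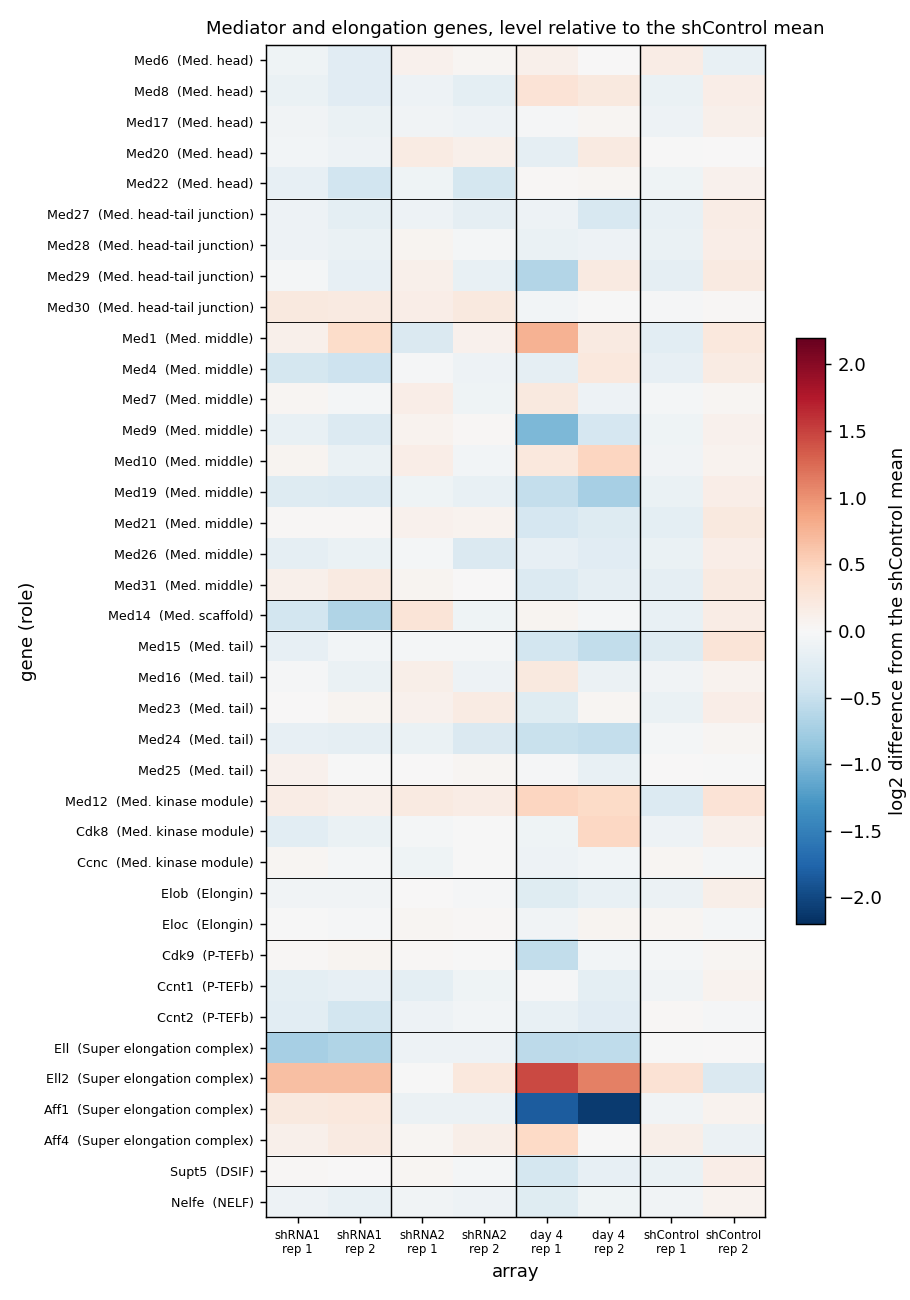
Log2 difference from the shControl mean for each of the 38 measured genes (rows, grouped by role) on each of the 8 arrays (columns, grouped by shRNA1, shRNA2, day 4 and shControl). The deepest colours are those of Aff1 and Ell2 on the day 4 arrays, and most other rows are pale on all arrays.

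On day 4 the called members with the largest changes were Aff1 and Ell2 of the super elongation complex, which moved in opposite directions. Aff1, one of its scaffold genes, fell 3.91-fold, Ell2, an elongation factor gene, rose 2.43-fold, and its relative Ell fell 1.49-fold. Among Mediator genes, Med9 and Med19 of the middle module and Med24 of the tail fell by smaller amounts. In all 1 member rose and 5 fell among 38, where 7.67% of all genes rose and 8.73% fell (limma, Benjamini-Hochberg adjusted p under 0.05 over 12393 genes). The members called made up 15.8% of those measured, near the 16.4% of all genes, and 8 members had an unadjusted p under 0.05, against 29.2% of all genes. With only the day 4 and shControl arrays in the model, Aff1 and Ell2 alone were called, and Ell, Med9, Med19 and Med24 had adjusted p of 0.0985 to 0.142. Both day 4 arrays lay above both shControl arrays for 4 members (24.1% of all genes) and below them for 15 (26.3% of all genes). The 4 were Ell2, Med8, Med10 and Med12. In bulk samples such as these, fewer cells of a type and less RNA per cell cannot be told apart.

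Aff1 encodes a scaffold of the super elongation complex, the protein on which P-TEFb and an ELL factor assemble. It read 7.10 and 6.84 on the day 4 arrays (log2 level), against 8.87 and 9.01 on the shControl arrays. Both day 4 arrays lay below every other array of the data set, the lowest of which was 8.81. The change was -1.97 ± 0.14 on the log2 scale (moderated SE, 2 against 2 arrays; limma adjusted p = 3.96e-05), with a 95% interval of -2.28 to -1.65, and a change as large in either direction was seen in 1.82% of all genes. A second probe set of Aff1 read 3.88 and 4.07 on day 4 and 5.26 and 5.72 in shControl, a change of -1.52 ± 0.17. The third, which lay between 3.52 and 4.04 on all arrays and so near the lower quartile, gave -0.05 ± 0.17. Averaged over the 3 probe sets the change was -1.18.

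Aff4, the other AFF scaffold gene among the members, did not follow. Its log2 level was 10.48 and 10.04 on day 4, against 10.17 and 9.92 in shControl, so that the groups overlapped. The change was 0.22 ± 0.17 (adjusted p = 0.465), with a 95% interval of -0.18 to 0.61.

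Ell2 and Ell encode elongation factors that suppress pausing of the polymerase within the super elongation complex. Ell2 read 9.90 and 9.56 on day 4, against 8.76 and 8.14 in shControl. The day 4 arrays were the highest of the 8, and the gap between the shControl arrays was wider than that between the day 4 arrays. The rise was 1.28 ± 0.22 (adjusted p = 0.00397), 0.97 without shControl replicate 2 and 1.59 without shControl replicate 1. Ell read 6.09 and 6.11 on day 4, against 6.66 and 6.68 in shControl, a fall of 0.57 on the log2 scale (SE 0.12, adjusted p = 0.0125). Partner arrays of Ell were close in every group, and the day 4 and shControl ranges were well apart. Each of these genes had a single probe set. With day 4 set against the mean of the 3 undifferentiated groups, Ell had -0.31 and was not called (adjusted p = 0.0558), its level being low with shRNA1 too.

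**Figure D2:**
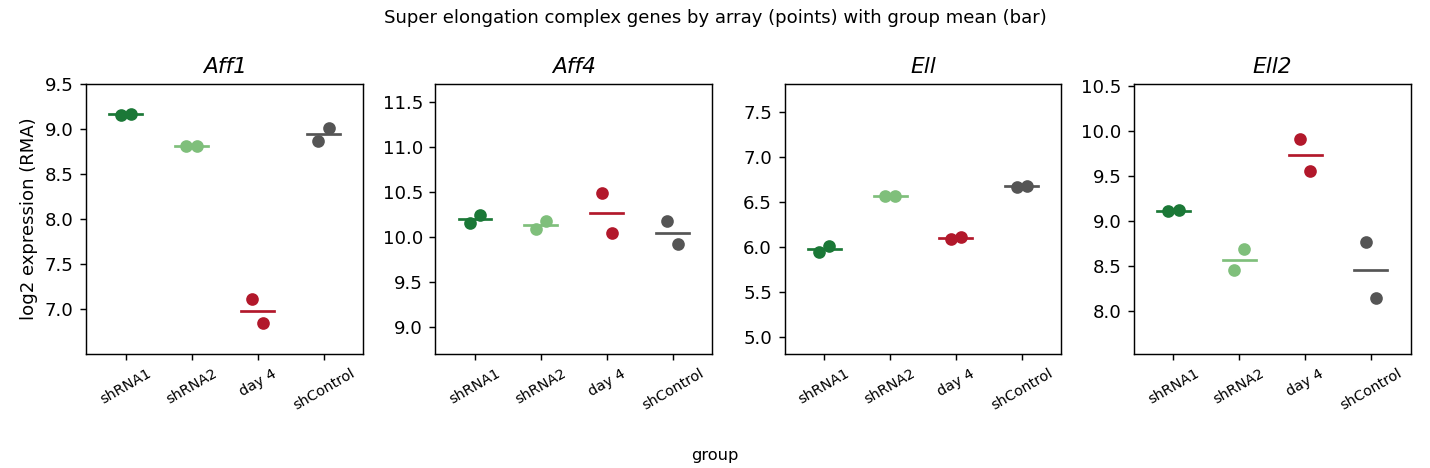
Log2 expression of Aff1, Aff4, Ell and Ell2 (vertical axes, each spanning 3 log2 units) in shRNA1, shRNA2, day 4 and shControl, with a point for each array and a bar for the group mean. Aff1 is lowest on day 4 at 7.10 and 6.84, Ell2 is highest there at 9.90 and 9.56, and Ell is low both on day 4 and with shRNA1.

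The promoters of these 3 genes are shown because the series concerns a protein that binds CpG dinucleotides. Windows run from 250 bases before to 50 after the annotated start, from RefSeq on GRCm38.p6, and CG is in capitals. The CG count was 40 for Aff1, 29 for Ell and 23 for Ell2. A second annotated start of Aff1 had 22.
Aff1 (chr5:103753912-103754211, plus strand): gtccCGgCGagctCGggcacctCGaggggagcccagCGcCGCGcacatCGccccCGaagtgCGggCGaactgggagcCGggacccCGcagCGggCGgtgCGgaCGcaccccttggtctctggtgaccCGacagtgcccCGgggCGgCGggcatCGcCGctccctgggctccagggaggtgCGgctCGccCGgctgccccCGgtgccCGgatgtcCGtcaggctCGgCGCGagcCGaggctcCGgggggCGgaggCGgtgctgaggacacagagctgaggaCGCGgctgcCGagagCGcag
Ell (chr8:70539425-70539724, plus strand): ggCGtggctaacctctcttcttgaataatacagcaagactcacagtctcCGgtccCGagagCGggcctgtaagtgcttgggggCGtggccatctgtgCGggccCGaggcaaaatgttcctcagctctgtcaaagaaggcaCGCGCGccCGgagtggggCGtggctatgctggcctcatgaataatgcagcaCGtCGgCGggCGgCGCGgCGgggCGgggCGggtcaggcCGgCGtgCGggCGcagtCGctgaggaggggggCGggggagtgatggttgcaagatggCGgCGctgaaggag
Ell2 (chr13:75707234-75707533, plus strand): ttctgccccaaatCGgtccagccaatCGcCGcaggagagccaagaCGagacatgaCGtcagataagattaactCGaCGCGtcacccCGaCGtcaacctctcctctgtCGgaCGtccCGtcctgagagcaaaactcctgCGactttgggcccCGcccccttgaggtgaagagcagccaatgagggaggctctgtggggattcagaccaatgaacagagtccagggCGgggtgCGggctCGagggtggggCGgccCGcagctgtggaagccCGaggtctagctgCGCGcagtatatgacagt

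Of the 38 measured members, 32 had windows in that table, 37 in all. The members Med8, Med23, Med24, Med30, Eloc and Nelfe were not among them. The letters CG, read on the gene's strand and so equally on the other, occurred a median of 23 times per window, with a range of 3 to 44, and 20 or more times in 64.9% of windows. Among 12566 windows of all measured genes the median was 17, and 44.3% held 20 or more. The members were also brighter, with median log2 levels of 8.65 to 9.01 over the arrays, against 6.19 to 6.39 for all genes. No comparison with genes of like level was made. At least 1 CG was present in every window of the members and in 98.3% of those of all measured genes. The count is a description of the windows and says nothing about where Fbxl19 binds. Genes called on day 4 stood on both sides of the members' median, with 40 and 22 for the windows of Aff1 and 12 for Med19.

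The other elongation factors were not called on day 4, and most of their changes lay below 0. Cdk9, the kinase of P-TEFb, read 10.06 and 10.55 on day 4, against 10.57 and 10.65 in shControl, a change of -0.31 ± 0.17 (adjusted p = 0.270). One day 4 array accounted for most of that difference, the other lying just under the controls, and without day 4 replicate 2 the change was -0.55 and was called (adjusted p = 0.0293). The cyclin genes of P-TEFb, Ccnt1 and Ccnt2, had -0.12 and -0.20. Elob, a small subunit of elongin, read 12.12 and 12.22 on day 4, against 12.25 and 12.52 in shControl (-0.22 ± 0.14, adjusted p = 0.349). Its partner Eloc had -0.01.

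Supt5, the large subunit of the pausing and elongation factor DSIF, read 9.81 and 10.01 on day 4, against 10.05 and 10.34 in shControl. The arrays did not overlap, but the change of -0.29 ± 0.15 was not called (adjusted p = 0.241). Nelfe, a subunit of the pausing factor NELF, read 8.79 and 8.95 on day 4, against 8.97 and 9.13 in shControl (-0.18 ± 0.13, adjusted p = 0.431). Over the 11 elongation members the median change was -0.20, with 2 above 0, where the median of all genes was 0.00. After centring each array on its median the values were -0.14 and 0.06. The size of the elongation median depended on the shControl array kept. It was -0.26 without shControl replicate 1 and -0.10 without shControl replicate 2, beside -0.01 and -0.01 for all genes.

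**Figure D3:**
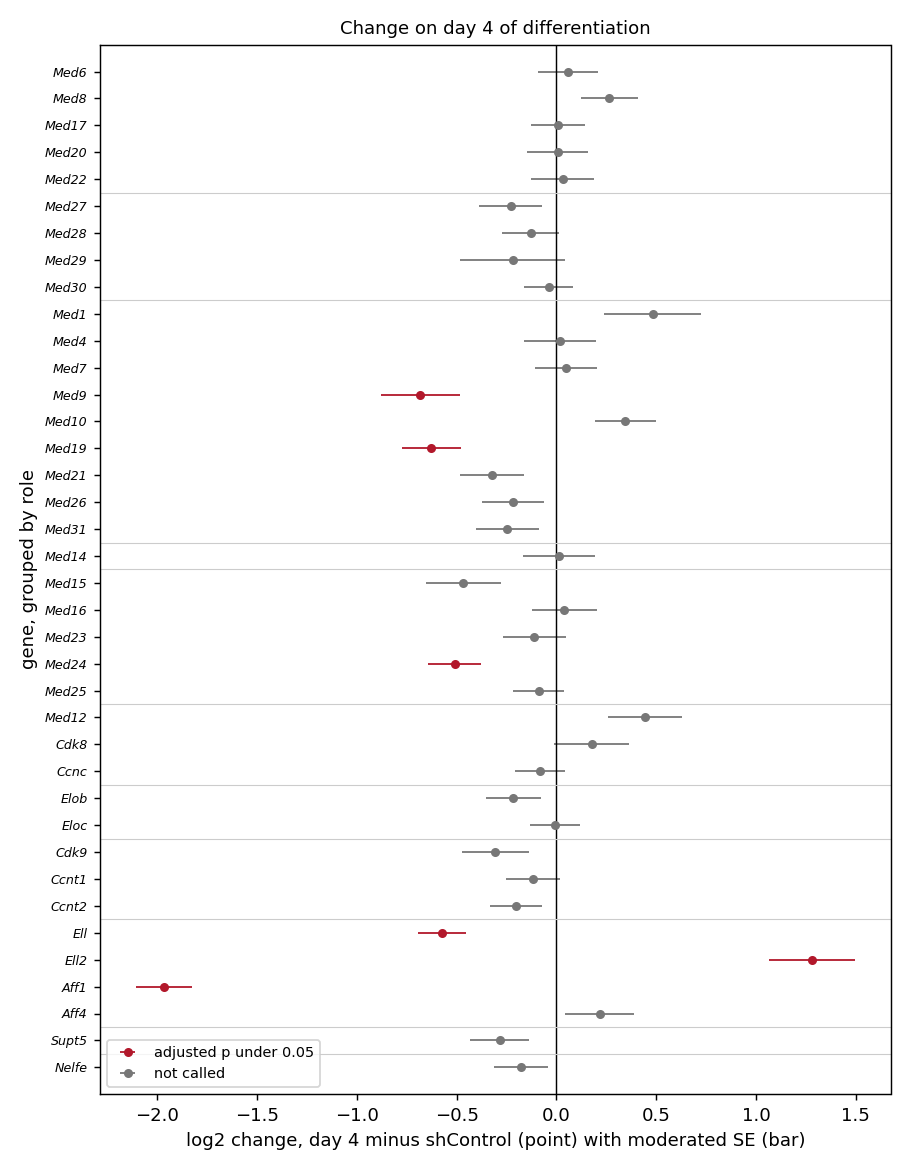
Log2 change of each measured member on day 4 against shControl (points, horizontal axis) with its moderated SE (bars), genes grouped by role down the page and called genes in red. Aff1 lies at -1.97 and Ell2 at 1.28, and the other 4 called genes lie between -0.68 and -0.51.

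Mediator as a whole shifted little on day 4. Of 27 measured Mediator genes, 0 rose and 3 fell (1 after centring), where 7.67% of all genes rose and 8.73% fell, 13 lay above 0, and the median change was -0.04, or 0.03 after centring. For 25 of them (92.6%, against 81.1% of all genes) the 95% interval lay within a 2-fold change in either direction. Med1 and Med9 were the exceptions. The Mediator median also depended on the shControl array kept. It was -0.11 without shControl replicate 1 and 0.01 without shControl replicate 2, beside -0.01 and -0.01 for all genes.

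In the head module, whose subunits contact the polymerase, the 5 measured genes had changes between 0.01 and 0.27. Med8 had the highest, reading 10.53 and 10.45 on day 4, against 10.08 and 10.36 in shControl (0.27 ± 0.14, adjusted p = 0.265). The day 4 arrays were above those of all other groups, and Med8 was called when day 4 was set against the mean of the 3 undifferentiated groups (0.38, adjusted p = 0.0454). Of the 4 subunits that join head and tail, Med27 had the largest change, reading 7.05 and 6.81 on day 4, against 6.99 and 7.33 in shControl (-0.23 ± 0.16, adjusted p = 0.390).

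The middle module held the most varied day 4 values. Med19, a subunit known in yeast for its contact with the polymerase, read 8.72 and 8.53 on day 4, against 9.11 and 9.40 in shControl. It fell by 0.63 on the log2 scale (SE 0.15, adjusted p = 0.0199), and its other probe set gave -0.47. The call was lost without shControl replicate 2 (-0.48, adjusted p = 0.0995) and without day 4 replicate 2 (-0.53, adjusted p = 0.0557). Med9, a small subunit of the same module, read 8.57 and 9.20 on day 4, against 9.48 and 9.66 in shControl. Its change of -0.68 ± 0.20 was just past the threshold (adjusted p = 0.0478), and its other probe set gave -0.42. The gap between the day 4 arrays of Med9 was wider than that from the nearer one to the controls. Without day 4 replicate 1 it had -0.37 (adjusted p = 0.173), and it was called without day 4 replicate 2 and not called without any other single array, with adjusted p of 0.0795 to 0.223.

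Med1, the subunit that binds nuclear receptors, read 8.48 and 7.91 on day 4, against 7.48 and 7.95 in shControl, so that the groups overlapped (0.48 ± 0.24, adjusted p = 0.231). It had 6 probe sets, whose day 4 changes ran from -0.84 to 0.48. Averaged over them it had -0.01, so no direction can be given for Med1. Across all 14 members with several probe sets, the sign agreed within 8 on day 4, and the changes spread over more than 1 log2 unit in Aff1 and Med1.

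In the tail, the module contacted by activators, Med24 read 6.55 and 6.51 on day 4, against 6.995 and 7.09 in shControl. It fell by 0.51 on the log2 scale (SE 0.13, adjusted p = 0.0285). This call depended on single arrays. Without shControl replicate 2 it had -0.46 (adjusted p = 0.105), and without any other array except shControl replicate 1 its adjusted p was 0.0511 to 0.0669. A second probe set, with a mean of 3.16 over the arrays, gave -0.05. Med15, another tail subunit, had -0.47 ± 0.19 (adjusted p = 0.138).

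Med14, the scaffold that joins the modules, read 5.80 and 5.69 on day 4, against 5.57 and 5.89 in shControl, a change of 0.01 ± 0.18. In the kinase module, Med12, the activator of the Cdk8 kinase, read 6.52 and 6.46 on day 4, against 5.75 and 6.34 in shControl (0.45 ± 0.19, adjusted p = 0.147). Its day 4 arrays were above those of all other groups, and without shControl replicate 2 it was called (0.74, adjusted p = 0.0195). Cdk8 had 0.18 ± 0.19 and Ccnc, which encodes cyclin C, -0.08 ± 0.12. The 3 probe sets of Ccnc ran from -0.70 to -0.08.

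No member was called with either hairpin against Fbxl19, with their mean, or between them. With shRNA1 the count was 0 of 38 members, where 0.242% of all genes were called, and 5 members had an unadjusted limma p under 0.05 (13.2% of members and 9.82% of all genes). Both shRNA1 arrays lay above both controls for 3 members (20.4% of all genes) and below them for 12 (23% of all genes). The 5 with a low p were Ell, Med14, Med4 and Ccnt2 with lower values and Ell2 with a higher one. With shRNA2 the count was 0 of 38, where 0% of all genes were called, and 0 members had an unadjusted p under 0.05, against 5.1% of all genes. Both shRNA2 arrays lay above both controls for 3 members (15.4% of all genes) and below them for 6 (17.8% of all genes). The 95% interval lay within a 2-fold change in either direction for all 38 members with shRNA2 (96.2% of all genes) and for 37 with shRNA1 (94.1% of all genes), Ell2 being the exception. Changes smaller than that remain possible for these genes. Each value is that of the brightest probe set. Among the 14 members with several probe sets, the sign agreed within 8 with shRNA1 and within 5 with shRNA2. The actin 3' excess given above separated the knockdown arrays (0.70 to 0.76) from the shControl arrays (0.60 and 0.54).

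**Figure D4:**
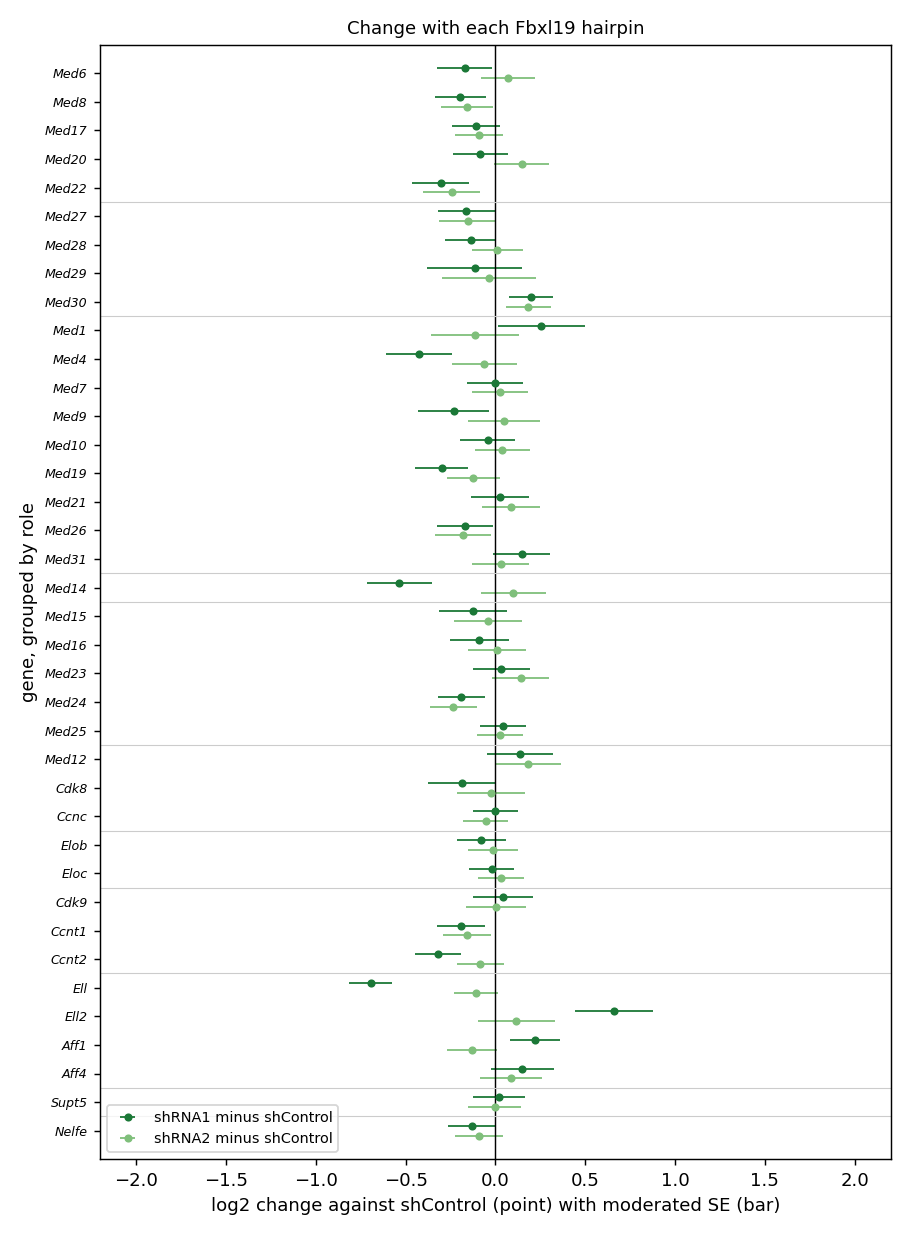
Log2 change of each measured member with shRNA1 (dark green) and shRNA2 (light green) against the same 2 shControl arrays (points, horizontal axis), with moderated SE (bars) and genes grouped by role. Ell at -0.69 and Ell2 at 0.66 with shRNA1 stand farthest from 0, while all shRNA2 points lie between -0.24 and 0.18.

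Ell came nearest to a call with shRNA1. It read 5.95 and 6.01 with shRNA1 and 6.56 and 6.56 with shRNA2, against 6.66 and 6.68 in shControl. The shRNA1 arrays were the lowest of the 8, and those of shRNA2 lay between them and the controls. The change with shRNA1 was -0.69 ± 0.12 (adjusted p = 0.0642) and with shRNA2 -0.11 ± 0.12 (adjusted p = 0.989). It was called with shRNA1 without either day 4 array (adjusted p = 0.0367). Between the hairpins, shRNA2 minus shRNA1 was 0.59 ± 0.12 (adjusted p = 0.220), so a difference in Ell between them was not called.

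Ell2 moved to the other side with shRNA1. It read 9.11 and 9.11 with shRNA1 and 8.45 and 8.69 with shRNA2, against 8.76 and 8.14 in shControl. The shRNA1 arrays were above both others, while those of shRNA2 lay within the control range. The change was 0.66 ± 0.22 with shRNA1 (adjusted p = 0.389; 0.35 without shControl replicate 2) and 0.12 ± 0.22 with shRNA2. For Ell and Ell2 the shRNA1 values lay on the same side of the controls as the day 4 values given above, and both comparisons use the same shControl arrays. Aff1 did not, with 9.15 and 9.17 with shRNA1 and 8.81 and 8.81 with shRNA2, against 8.87 and 9.01 in shControl (0.22 ± 0.14 and -0.13 ± 0.14). Its second probe set gave -0.43 ± 0.17 with shRNA1, so the probe sets of Aff1 differed in sign there.

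Among Mediator genes, Med14 read 5.33 and 5.07 with shRNA1 and 6.02 and 5.65 with shRNA2, against 5.57 and 5.89 in shControl. Its change with shRNA1 was -0.53 ± 0.18 (adjusted p = 0.402), and the hairpins differed by 0.63 ± 0.18 (shRNA2 minus shRNA1, adjusted p = 0.490). Med4, a middle subunit, read 8.88 and 8.80 with shRNA1 and 9.25 and 9.16 with shRNA2, against 9.08 and 9.45 in shControl. The shRNA1 arrays of both genes lay below the controls and those of shRNA2 overlapped them. For Med4 the change with shRNA1 was -0.43 ± 0.18 (adjusted p = 0.497). Med1 read 7.83 and 8.11 with shRNA1 and 7.40 and 7.80 with shRNA2, against 7.48 and 7.95 in shControl. Both hairpin groups of Med1 overlapped the controls, while both shRNA2 arrays lay below both shRNA1 arrays (shRNA2 minus shRNA1 -0.37 ± 0.24, not called).

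Most Mediator genes had like values with both hairpins. The difference was under 0.2 on the log2 scale in 21 of 27, and in 9349 of all 12393 genes. Med30, a subunit at the head and tail junction, read 9.83 and 9.81 with shRNA1 and 9.77 and 9.84 with shRNA2, against 9.59 and 9.65 in shControl. It was the 1 member of 38 whose 4 knockdown arrays all lay above the controls, and the mean change of 0.19 ± 0.11 was not called (adjusted p = 0.670). Such separation on the higher side was seen in 9.53% of all genes, and on the lower side in 5 members, or 13.2%, and 10.6% of all genes. The 5 were Med22, Med24, Ccnt1, Ccnt2 and Ell.

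Med22, a head subunit, read 7.91 and 7.66 with shRNA1 and 7.997 and 7.69 with shRNA2, against 7.999 and 8.18 in shControl, a mean change of -0.27 ± 0.14 (adjusted p = 0.629). Med24 read 6.87 and 6.84 with shRNA1 and 6.90 and 6.72 with shRNA2, against 6.995 and 7.09 in shControl. The separation was slight, and for Med22 the nearest knockdown and control arrays were almost equal. Med26, a middle subunit that helps recruit elongation factors, had -0.17 ± 0.15 and -0.18 ± 0.15 with shRNA1 and shRNA2. Med12 had 0.14 ± 0.19 and 0.18 ± 0.19. Med20 of the head was unlike them, with -0.08 ± 0.15 and 0.15 ± 0.15. Its shRNA1 arrays lay below both controls and its shRNA2 arrays above both.

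The median change over the 38 members was -0.10 with shRNA1, -0.01 with shRNA2 and -0.05 for their mean, where the median of all genes was 0.00, -0.01 and 0.00. With shRNA1, 26 of 38 members lay below 0. This shift depended on single shControl arrays. Without replicate 2 the medians were 0.01 with shRNA1 and 0.06 with shRNA2, against -0.20 and -0.14 without shControl replicate 1. For the mean of both hairpins 0 members were called, where 0.0726% of all genes were, and 1 member, Ell, had an unadjusted p under 0.05 (2.63% of members and 8.42% of all genes). Between the hairpins 0 members were called, where 0.105% of all genes were, and 4 had an unadjusted p under 0.05 (10.5% of members and 5.15% of all genes). Both shRNA2 arrays lay above both shRNA1 arrays for 15 members (21.9% of all genes) and below them for 5 (21.7% of all genes). The 4 with a low p were Med14 and Ell, higher with shRNA2 than with shRNA1, and Ell2 and Aff1, lower with shRNA2.

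The rest of the transcription machinery was read from a list of 69 further genes, of which 51 were measured. On day 4, 0 rose and 5 fell, where 7.67% of all genes rose and 8.73% fell. The median change was -0.18 and 8 of 51 lay above 0, where the median of all genes was 0.00. After centring, 0 rose and 4 fell, with a median of -0.11 beside 0.06 for all genes. The uncentred median of the 51 was -0.30 without shControl replicate 1 and -0.11 without shControl replicate 2. Tcea3, which encodes a TFIIS-type factor that rescues arrested polymerase, read 6.57 and 6.70 on day 4, against 8.83 and 9.16 in shControl. It fell by 2.36 on the log2 scale (SE 0.16, adjusted p = 3.02e-05), with 1 probe set and no overlap between the groups.

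Cdk12, a kinase that acts on the polymerase during elongation, fell by 0.84 (SE 0.15, adjusted p = 0.00468). The polymerase subunit gene Polr2e had -0.80 ± 0.16 (adjusted p = 0.00933; -0.38 and not called when its probe sets were averaged, and not called without shControl replicate 2, with -0.64) and Gtf2h1, a subunit of the initiation factor TFIIH, -0.72 ± 0.14 (adjusted p = 0.00982; -0.58 and not called without shControl replicate 2). Polr2i, another polymerase subunit gene, had -0.67 ± 0.19 (adjusted p = 0.0473; not called without any single array other than day 4 replicate 2, with changes of -0.36 to -0.74).

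With shRNA1, 1 of these 51 genes was called, where 0.242% of all genes were. Eloa encodes elongin A, the active subunit of the factor that Elob and Eloc complete. It read 5.71 and 6.09 with shRNA1 and 7.44 and 7.22 with shRNA2, against 7.32 and 7.34 in shControl. The shRNA1 arrays were the lowest of the 8 and those of shRNA2 lay around the controls. Eloa fell with shRNA1 by 1.43 on the log2 scale (SE 0.16, adjusted p = 0.0131). Without any 1 of the shControl or shRNA1 arrays the change was -1.23 to -1.62 and was not called. Its other probe sets gave -0.82 ± 0.20 and -0.52 ± 0.17 with shRNA1. Over all 16 alternatives the smallest fall of Eloa was -0.92. Elob read 12.30 and 12.31 with shRNA1 and 12.39 and 12.35 with shRNA2, against 12.25 and 12.52 in shControl, so the partner gene overlapped the controls where Eloa did not.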

How the data were processed

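Transcript levels came from 8 Affymetrix microarrays in 4 groups of 2, assigned from the sample titles. The authors deposited log2 values of each probe set, with RMA named as the tool by the submitters' processing notes. No version is given in the sources used here, nor whether the arrays were processed as one set. The 64 array control probe sets were left out. Symbols came from the platform annotation and were updated by gene identifier with a RefSeq table of GRCm38.p6, which matched 20351 of 20380 probe sets with 1 symbol. Another 691 had several and 1555 had none, and Skic8 was looked up as Wdr61.

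A mean per group was fitted to the brightest probe set of each of 12393 genes, leaving 4 residual degrees of freedom, with the lmFit and eBayes functions of limma 3.58.1 (R 4.3.3), and p-values were adjusted by Benjamini-Hochberg over all genes. The code was also run on simulated data with independent noise of the fitted spread. Such a run cannot show that the model suits these arrays. Errors are moderated SE, and intervals are 95% intervals of the same model. The members, lists and tests were chosen with earlier results of these data known. The rule for named genes took members called in any comparison, the member of each role with the largest day 4 change, and the 3 highest and 3 lowest members of the hairpin comparisons, and other genes of the pathway where called, with Eloa. Members named beyond it were chosen after their values were seen. Alternatives concerned the probe sets, dim genes, eBayes settings, arrays in the fit, scaling, the replicate number and the reference. The number of arrays limits the precision.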

Additional observations from a re-analysis of the deposited data

Results flagged for a closer look

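Eloa differed between the hairpins by the test of that difference. It was 1.43 ± 0.16 higher on the log2 scale with shRNA2 than with shRNA1 (limma adjusted p = 0.0225), with 7.44 and 7.22 on the shRNA2 arrays and 5.71 and 6.09 on the shRNA1 arrays. The difference was called in 8 of 16 alternatives and ran from 0.73, with the mean of its 3 probe sets, to 1.62. It was not called without any 1 of the shControl, shRNA1 or shRNA2 arrays, nor with the arrays of the 2 hairpins alone in the model (adjusted p = 0.0713). The other probe sets gave 0.55 ± 0.20 and 0.22 ± 0.17.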

How the results depend on the processing

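On day 4, Aff1 and Ell2 were called in all 17 alternatives, with changes of -2.10 to -1.18 and 0.97 to 1.59, Ell in 15, Med19 in 14, Med24 in 6 and Med9 in 5. The 6 members called became 2, Aff1 and Ell2, when the model held the compared groups alone, and 4 to 7 with any array left out. Among those added were Ccnc with its probe sets averaged (-0.40, adjusted p = 0.0493) and, without shControl replicate 1, Med15 and Med21. The median of the members lay between -0.18 and -0.04 in all alternatives. With a hairpin the only member called was Ell with shRNA1, with probe sets averaged per gene, so that the count was 1, and without either day 4 array, the range without single arrays being 0 to 1. For shRNA2, the mean of both and the difference between hairpins it was 0 in all 16 alternatives.

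Counts over all genes were less stable. On day 4 the 2033 genes were 1145 with only the compared groups and 1102 to 2628 with any array left out, the lowest without shControl replicate 2. With shRNA1 the 30 genes were 48 with trend and robust eBayes, 113 with only the compared groups, 47 after repeated quantile normalization and 2 to 113 with any array left out. With shRNA2 the 0 genes were 2, 40, 2 and 0 to 12 under the same settings. For the mean of both the 9 genes were 54 with only the compared groups, 5 after centring and 0 to 54 with any array left out. Between hairpins the 13 genes were 2 to 37 with any array left out. With the replicate number as a block, the counts were 49 with shRNA1, 22 for the mean of both and 8 between hairpins, and the 6 members on day 4 remained 6. Deviations of same-numbered arrays correlated at 0.23 to 0.50 among the undifferentiated groups and -0.08 to 0.07 with day 4. The labels name no pairing, and the main model did not pair the arrays. For the hairpin comparisons the positive correlations leave a pairing by number possible. With 2 arrays a group, small changes are beyond these data.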
